A study of Mus musculus with 16 samples.

Results

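Colon gene expression was compared between germ-free Swiss Webster mice colonised with a single bacterium, Bifidobacterium UCC2003, and germ-free control mice that carried no bacteria (GF). The UCC2003 group has 4 arrays and the GF group 4, chosen by their treatment labels, and they make up 8 of the 16 arrays of the series. The other arrays come from germ-free mice colonised with a TadA mutant of the bacterium (4 arrays) and from conventionalised animals of the same germ-free stock (CONV, 4 arrays of the 5 animals that the design text states). All 4 groups share the Swiss Webster stock, an outbred strain of mouse, a germ-free origin, and total RNA from whole colon, and the arrays are labelled as biological replicates. Age, sex, litter, cage and length of colonisation were not used here, so p-values measure the spread between these arrays.

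Bifidobacteria are early colonisers of the infant gut, and strains of the genus are used as probiotics. The colon meets bacteria through a sheet of absorptive, goblet and enteroendocrine cells: goblet cells secrete mucus and defence proteins, glycosyltransferases build the sugar chains on mucins and on the cell surface, and enteroendocrine cells release peptide hormones. Beneath that sheet lie immune cells, fibroblasts, vessels, nerves and the smooth muscle of the gut wall. A germ-free colon given a single strain therefore shows how all of these compartments stand in the presence of that strain, and the series title asks about growth of the colonic epithelium.

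Expression was read on Mouse Exon ST 1.0 arrays as log2 intensities, so a difference of 1 is a doubling. Values exist for 23332 transcript clusters, each the probe group of a transcript, and 1973 of these could be assigned to exactly 1 gene symbol. A second table gives log2 values for 1793 genes that the authors had picked for variation among UCC2003, TadA mutant and GF colons. Because these same arrays picked the genes, counts from that gene-level table are no independent support, and its columns carry a group but no replicate number. Defining genes of the colonic lining were high in all arrays compared: Krt20, a keratin of differentiated colonocytes, lay between 11.10 and 11.39 log2 units, and Zg16, a goblet cell lectin, between 12.61 and 12.91. Pancreatic transcripts stood out in part of the arrays. Cpa1, a pancreatic carboxypeptidase, was at 13.22, 5.03, 13.29 and 4.39 log2 units in UCC2003 replicates 1 to 4, against 4.96, 13.24, 13.12 and 12.95 in GF replicates 1 to 4. It was thus high in 2 of 4 UCC2003 arrays and 3 of 4 GF arrays, and its part in the results below was not tested except where a value without those arrays is given.

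Few transcripts separated the colonised from the germ-free colon. By limma with Benjamini-Hochberg adjustment, 5 of 23332 clusters passed an adjusted p of 0.05 in UCC2003 against GF, which is 0.0214% of those tested; 4 of them (0.0171% of clusters) were higher in UCC2003. Of the clusters with a gene symbol, 2 of 1973 passed, or 0.101%. At an unadjusted p under 0.05 there were 1857 clusters, 7.96%, of which 1228 (5.26%) were higher and 629 (2.7%) lower in UCC2003. Of all clusters, 59.2% had a higher mean in UCC2003. The 4 UCC2003 arrays lay entirely above or below the 4 GF arrays in 4.81% of clusters. Of 1793 genes in the gene-level table, 6 passed, 0.335%, after adjustment over 35860 tests, and 4 of them (0.223%) were higher. There 41.4% of all genes had a higher mean in UCC2003. A difference had a median standard error of 0.14 log2 units among clusters, and 150 clusters were higher and 65 lower by 1 log2 unit or more. In the authors' deposited table, 1 of 16135 features had an adjusted p under 0.05 for this pair of groups.

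**Figure D1:**
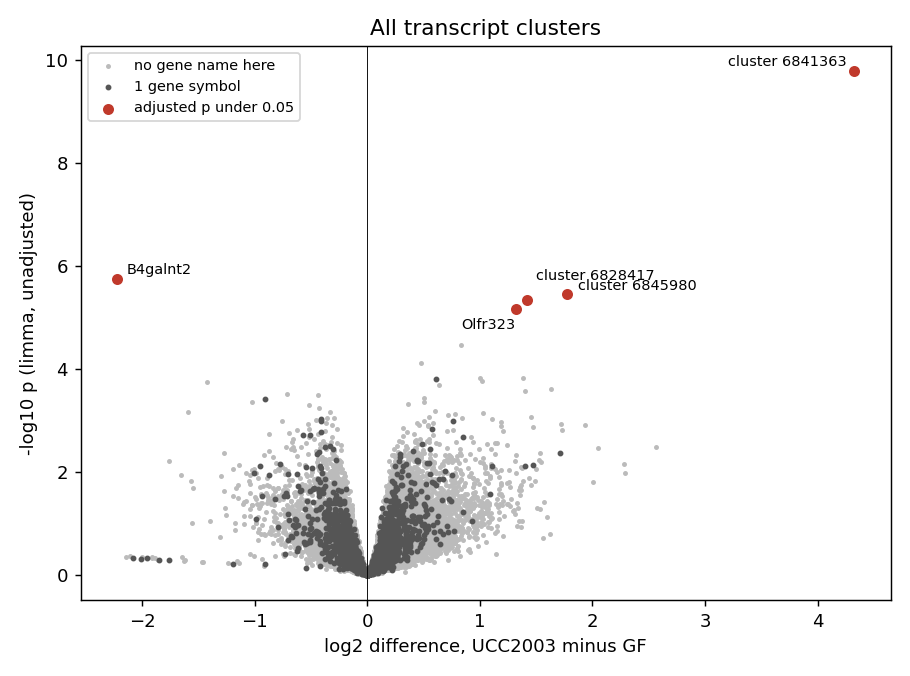
All 23332 transcript clusters by log2 difference, UCC2003 minus GF (horizontal axis), and by -log10 of the unadjusted limma p (vertical axis). Dark points have 1 gene symbol and red points passed an adjusted p of 0.05. Cluster 6841363 stands alone at 4.32 log2 units and B4galnt2 at -2.22, while the other 3 red points lie between 1.32 and 1.78.

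Retnlb, on chromosome 16, showed the widest difference of any named gene. It encodes resistin-like beta, a protein that goblet cells secrete into the lumen and that is known to respond to bacterial colonisation and to restrain bacteria near the lining. It was at 10.60, 10.16, 10.63 and 11.05 log2 units in the UCC2003 columns, against 7.17, 7.38, 6.84 and 6.24 in the GF columns. The groups did not overlap, and the lowest UCC2003 column stood well above the highest GF column. The difference was 3.70 ± 0.28 log2 units (SE), a 13-fold higher level in UCC2003 (95% interval 3.09 to 4.31 log2 units, limma adjusted p = 0.00029). CONV colons averaged 11.27 ± 0.22 log2 units and TadA mutant colons 7.69 ± 0.51 (SD, n = 4 each). Adjusted for the smooth muscle level, the difference was 3.27 ± 0.58, and the call ended (adjusted p = 0.708).

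The called gene of epithelial glycan biology went the opposite way from Retnlb. B4galnt2, on chromosome 11, encodes the beta-1,4-N-acetylgalactosaminyltransferase that finishes the Sda/Cad sugar structure on gut glycans, a structure that some gut bacteria bind or feed on. Its cluster was at 5.42, 5.45, 4.75 and 4.97 log2 units in UCC2003 replicates 1 to 4, against 7.23, 7.51, 7.57 and 7.16 in GF replicates 1 to 4. Every UCC2003 array lay below every GF array. The level in UCC2003 fell by 2.22 ± 0.29 log2 units (SE), or 4.66-fold, with a limma adjusted p of 0.0209. In the gene-level table the difference was -2.13 ± 0.19 (adjusted p = 0.00118). The value in UCC2003 colons was the lowest of all groups: TadA mutant colons averaged 7.46 ± 0.24 and CONV colons 8.91 ± 0.73 (SD, n = 4 each), so UCC2003 was also below CONV, by -3.77 ± 0.29 log2 units. The cluster call in UCC2003 against GF ended when UCC2003 replicate 3 or 4 or any GF array was left out, with adjusted p between 0.0547 and 0.0868, and the difference then stayed between -2.29 and -2.09. Without the arrays that carried pancreatic transcripts it was -2.02 ± 0.52 (adjusted p = 0.508), with 2 UCC2003 arrays and 1 GF array left. Adjusted for the smooth muscle level, the call ended in both tables, with limma adjusted p of 0.491 on clusters and 0.352 at gene level. Without moderation of the variances it ended too, at adjusted p of 0.11 and 0.0699.

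The highest difference of all belonged to a cluster with no gene name here, number 6841363. Its 4 group means stood in the same order as those of Retnlb, and whether it reads the same transcript was not tested. This cluster was at 11.81, 11.37, 11.75 and 12.17 log2 units in UCC2003 replicates 1 to 4, against 7.58, 8.04, 7.37 and 6.83 in GF replicates 1 to 4. The groups lay far apart, by 4.32 ± 0.27 log2 units, or 19.97-fold (limma adjusted p = 3.84e-06), and this cluster is brighter on average than 97.5% of all clusters. In CONV it averaged 12.16 ± 0.11 log2 units and in the TadA mutant group 8.33 ± 0.54 (SD, n = 4 each). UCC2003 and CONV differed by -0.39 ± 0.27 log2 units (adjusted p = 0.454). With the pancreatic arrays left out, it stood 4.18 ± 0.53 above GF and the call ended (adjusted p = 0.343). A further 2 unnamed clusters rose at lower levels. Cluster 6845980 averaged 6.90 ± 0.49 in UCC2003 and 5.12 ± 0.40 in GF (SD, n = 4 each), a difference of 1.78 ± 0.24 (adjusted p = 0.0264). Cluster 6828417 averaged 6.22 ± 0.24 in UCC2003 and 4.80 ± 0.48 in GF, a difference of 1.42 ± 0.20 (adjusted p = 0.0264). Both calls were lost in 11 of 17 alternatives, with adjusted p up to 0.999 and 0.944.

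The remaining calls were 2 chemosensory receptor genes, a predicted gene and an ion channel gene. Olfr323, an odorant receptor gene on chromosome 11, was at 4.03, 3.69, 3.70 and 4.04 log2 units in UCC2003, against 2.24, 2.50, 2.90 and 2.55 in GF. The groups did not overlap (1.32 ± 0.19, adjusted p = 0.0321), but the mean level of this cluster is above only 10.5% of all clusters, and the call was lost in 15 of 17 alternatives. Vmn2r99, a vomeronasal receptor gene on chromosome 17, averaged 7.11 ± 0.31 log2 units in UCC2003 and 5.46 ± 0.47 in GF (SD, n = 4 each), a rise of 1.65 ± 0.21 (SE, adjusted p = 0.0246). Gm609, a predicted gene on chromosome 16, averaged 7.12 ± 0.63 in UCC2003 and 5.01 ± 0.25 in GF, a rise of 2.11 ± 0.25 (adjusted p = 0.015). Both receptor genes belong to large families of near-identical copies that could share probes, so their identity is uncertain. Cnga1, a cyclic nucleotide-gated channel subunit known from rod photoreceptors, was at 3.15, 3.44, 3.50 and 3.00 in UCC2003 columns, against 4.33, 4.11, 4.67 and 4.68 in GF columns. It fell by 1.17 ± 0.16 log2 units (limma adjusted p = 0.0341), and 10 of 14 alternatives ended the call. The calls of Vmn2r99 and Gm609 were lost in 8 of 15 and 6 of 14. Olfactory receptor genes as a family did not share the direction of Olfr323: 67 of 210 named clusters were higher in UCC2003, with a median difference of -0.12 log2 units, against 55.2% higher and a median of 0.03 over all named clusters.

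**Figure D2:**
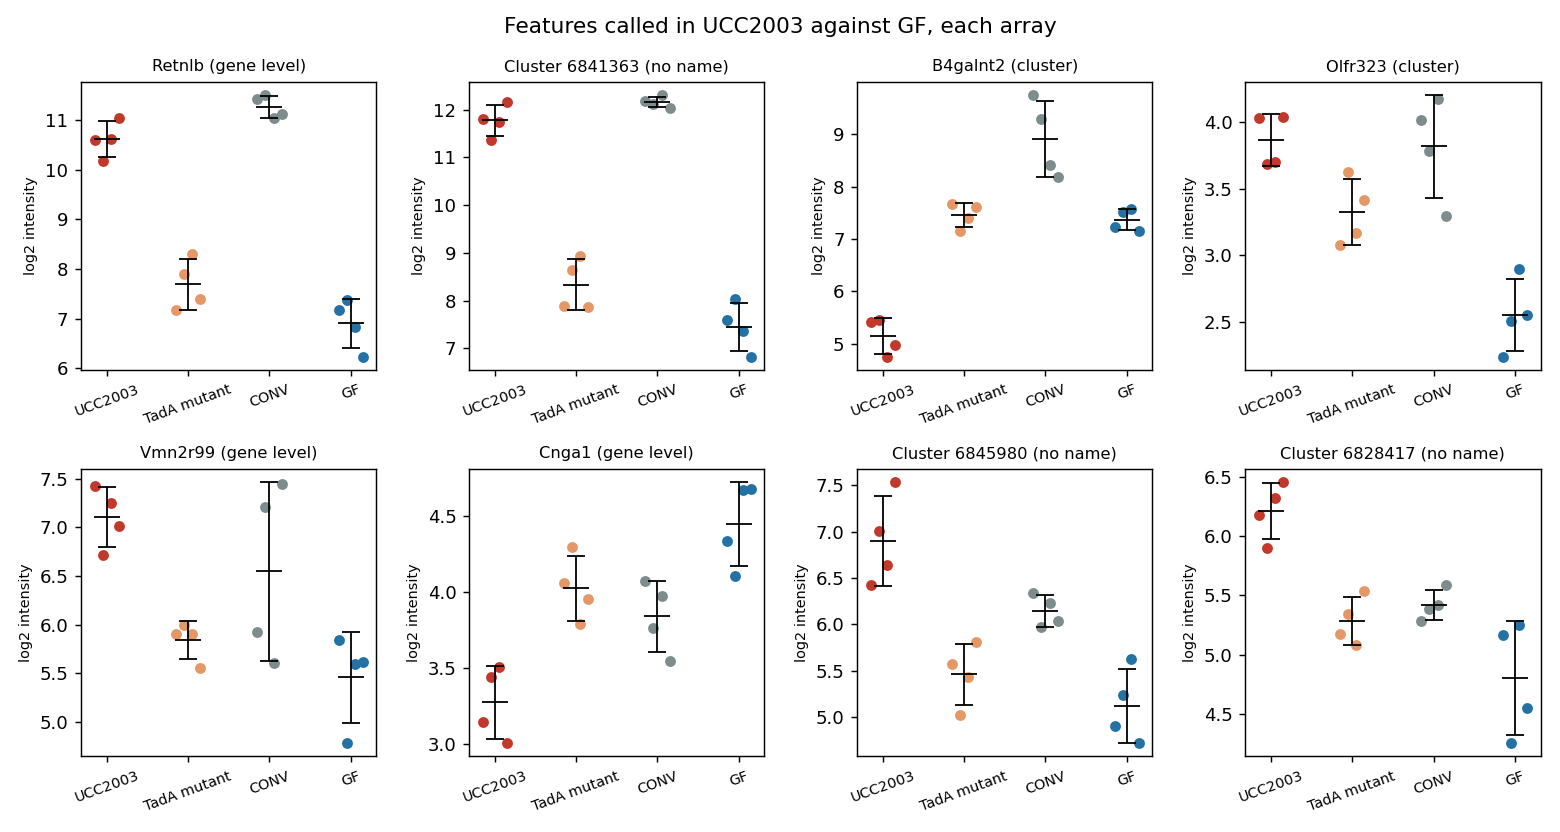
Log2 intensity in each array or column (points) with the group mean and SD (black bars) for 8 of the 9 features called in UCC2003 against GF; Gm609 is not drawn. Retnlb and cluster 6841363 are high in UCC2003 and CONV and low in the TadA mutant and GF groups, while B4galnt2 is lowest in UCC2003, at 4.75 to 5.45, against 7.16 to 7.57 in GF. Each panel has its own vertical axis, which does not start at 0.

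Among the other goblet cell and mucus genes that could be read, none was called. Only 7 of 23 listed goblet cell genes and 7 of 32 listed glycosylation genes were measured as clusters, so most of the programme was not read there. Of 7 goblet cell genes measured as clusters, 5 were higher and 2 lower in UCC2003, none passed the test, and their median difference was 0.10 log2 units against 0.04 over all clusters. Tff3, a trefoil peptide of mucus, differed by 0.10 (95% interval -0.11 to 0.31), and Zg16 by 0.09 (-0.09 to 0.26). Intervals of this width leave out a change of 1 log2 unit in either gene. Creb3l1, a transcription factor of secretory cells, was at 0.26 (-0.00 to 0.52) and Foxa3, a goblet cell transcription factor, at 0.16 (-0.05 to 0.37). In the gene-level table Guca2a, which encodes the fluid-regulating peptide guanylin, differed by 0.24 (-0.02 to 0.50), and Agr2, a chaperone needed for mucin folding, by 0.07 (-0.12 to 0.26). Next to B4galnt2, the other 6 glycosylation genes were spread from -0.37 for Chst5, a sulfotransferase, to 0.25 for Galnt4, which starts mucin sugar chains. Leaving out 1 array moved the number of goblet cell genes that were higher between 4 and 7, and their median was 0.030 without GF replicate 4.

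Defence genes of the epithelium showed no call either. Of 7 such clusters, 5 were higher in UCC2003 and their median difference was 0.06. Lypd8, which keeps flagellated bacteria away from the lining, was at 13.09 log2 units in UCC2003 and 13.03 in GF. Its difference of 0.06 had a 95% interval of -0.09 to 0.21. Reg4, a lectin of secretory cells, differed by 0.12 (-0.06 to 0.30) and Pigr, the receptor that carries IgA into the lumen, by 0.08 (-0.15 to 0.30). The lysozyme gene Lyz1 was at 0.50 with a wide interval of -0.11 to 1.12. Among 4 gene-level members, the oxidase genes Duox2 at 0.09 and Noxo1 at -0.14 also had intervals across 0.

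Peptide hormone genes of the distal gut were lower in UCC2003 colons, each without passing the test across all genes. Gcg, which encodes proglucagon and its product GLP-1 in L cells, was at 8.94, 8.68, 8.72 and 9.02 log2 units in UCC2003 columns, against 9.44, 9.37, 10.03 and 9.86 in GF columns. All UCC2003 columns were below all GF columns, with a difference of -0.84 ± 0.16 (SE, limma adjusted p = 0.194). Insl5, an insulin-like hormone of colonic L cells, was at 9.32, 9.35, 8.88 and 9.20 in UCC2003, against 9.90, 9.77, 9.74 and 9.61 in GF, again with no overlap. Its difference was -0.56 ± 0.14 (adjusted p = 0.338). Pyy, which encodes peptide YY, the hormone that slows gut transit and appetite, could be read on clusters. It was at 11.09, 11.28, 10.95 and 11.16 in UCC2003 replicates 1 to 4, against 11.53, 11.40, 11.44 and 11.43 in GF replicates 1 to 4. That is a difference of -0.33 ± 0.09 (adjusted p = 0.604). Ppy, the pancreatic polypeptide gene next to Pyy in the same peptide family, was at 8.06, 8.03, 7.42 and 8.07 in UCC2003, against 8.89, 8.74, 8.48 and 8.57 in GF. Its difference was -0.78 ± 0.25 (adjusted p = 0.604), and it lay between -0.88 and -0.62 in all 18 alternatives. GF held 3 of the 5 arrays with pancreatic transcripts. The highest Ppy value, 8.89, was in GF replicate 1, without them, and the lowest, 7.42, in UCC2003 replicate 3, with them. The part of pancreatic tissue in this difference, and in that of Gcg, was not tested.

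The hormone genes stood at the bottom of a mixed group. Gpr119, a lipid-sensing receptor of L cells, was at -0.54 ± 0.23 with no overlap between groups, while Ffar4, a receptor for long-chain fatty acids, was at 0.35 ± 0.14 with overlap. Of 8 enteroendocrine clusters 3 were higher in UCC2003, with a median of -0.03, and the lineage factors Neurog3, Insm1 and Neurod1 lay between -0.04 and 0.04. Of 6 gene-level members 1 was higher, and 4 lay with all UCC2003 columns below all GF columns, where 19.3% of all genes in that table did so. Their median was -0.25, against -0.10 over the whole table, and between -0.29 and -0.20 when any 1 column was left out. In the TadA mutant group, Gcg averaged 9.40, Insl5 9.94 and Pyy 11.55 log2 units, and in CONV 9.55, 9.62 and 11.52. The differences UCC2003 minus TadA mutant were -0.56 for Gcg, -0.75 for Insl5 and -0.43 for Pyy, and none passed. Pyy was lower in UCC2003 than in CONV, by -0.39 ± 0.09 log2 units (limma adjusted p = 0.0366), in a comparison that called 706 clusters, 3.03%.

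Contractile genes of the gut wall were higher in UCC2003 colons throughout the measured list, again with no member called. Whole colon holds epithelium and muscle together, and in such bulk tissue fewer cells of a type and less RNA per cell cannot be told apart. Of 4 smooth muscle clusters all 4 were higher, with a median of 0.42 log2 units against 0.04 over all clusters, and 2 of the 4 had groups that did not overlap, compared with 3.26% of all clusters in that direction. Lmod1, leiomodin, which nucleates actin filaments in muscle, was at 6.78, 7.0, 6.70 and 6.86 log2 units in UCC2003 replicates 1 to 4, against 6.46, 6.39, 6.17 and 6.04 in GF replicates 1 to 4. Every UCC2003 array exceeded every GF array (0.57 ± 0.15, adjusted p = 0.582). Tpm2, a tropomyosin, was at 0.40 ± 0.12 with no overlap, Cnn1, a calponin, at 0.45 ± 0.14, and Pln, the phospholamban that restrains the calcium pump, at 0.13 with an interval of -0.35 to 0.60. The mean of these 4 genes was 8.26, 8.48, 8.21 and 8.24 in the UCC2003 arrays, against 8.09, 7.95, 7.93 and 7.67 in the GF arrays. Without the arrays with pancreatic transcripts, 4 of 4 were still higher, with a median of 0.30. Leaving out single arrays kept the median between 0.36 and 0.53.

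The gene-level table comes from the same arrays and was picked for variation among UCC2003, TadA mutant and GF, so its counts add no independent support. In it 9 of 9 smooth muscle members were higher, with a median of 0.64, against -0.10 for all its genes. Of the 9 members, 8 lay higher without overlap, where 18.4% of its genes were so placed. Myl9, the regulatory myosin light chain of smooth muscle, had the smallest p of them. It was at 10.55, 9.94, 10.52 and 10.73 log2 units in UCC2003 columns, against 9.71, 9.18, 9.35 and 9.16 in GF columns, a difference of 1.09 ± 0.17 (adjusted p = 0.0876). Synm, an intermediate filament protein, was at 1.15 ± 0.26, and Cald1, the actin-binding caldesmon, at 0.93 ± 0.23. The smooth muscle myosin Myh11 differed by 0.68 ± 0.20, the muscle filament Des by 0.64 ± 0.17, and the kinase Mylk, which phosphorylates the light chain, by 0.55 ± 0.15. TadA mutant colons also lay high for several of these: Myl9 averaged 9.82 log2 units there and Myh11 9.47. In CONV the same genes averaged 9.06 and 8.83. The difference UCC2003 minus TadA mutant was 0.61 for Myl9 and 0.20 for Myh11, and neither passed.

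Promoters of the smooth muscle genes were searched for the CArG box, the motif bound by serum response factor, because these genes are known as its targets and all had higher means in UCC2003. The motif is CC, then 6 bases that are each A or T, then GG, which reads alike on both strands. Of 13 smooth muscle genes measured in either table, 12 had a promoter sequence, taken from RefSeq (GRCm38) as 250 bases before to 50 after the gene start, and 1 of the 12 held the motif, compared with 1.63% of all 32851 promoters. That gene is Myl9, and the 250 bases before its start, at chr2:156775214-156775463 on the plus strand, are given with the box in capitals, 5′ to 3′.
Myl9: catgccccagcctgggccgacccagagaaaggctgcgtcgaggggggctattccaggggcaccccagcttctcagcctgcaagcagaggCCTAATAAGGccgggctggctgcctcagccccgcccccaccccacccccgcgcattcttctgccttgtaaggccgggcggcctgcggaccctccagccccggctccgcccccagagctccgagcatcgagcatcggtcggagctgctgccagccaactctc
The box lies at bases 90 to 99 of this stretch. A match is a description of the letters and no evidence of binding.

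**Figure D3:**
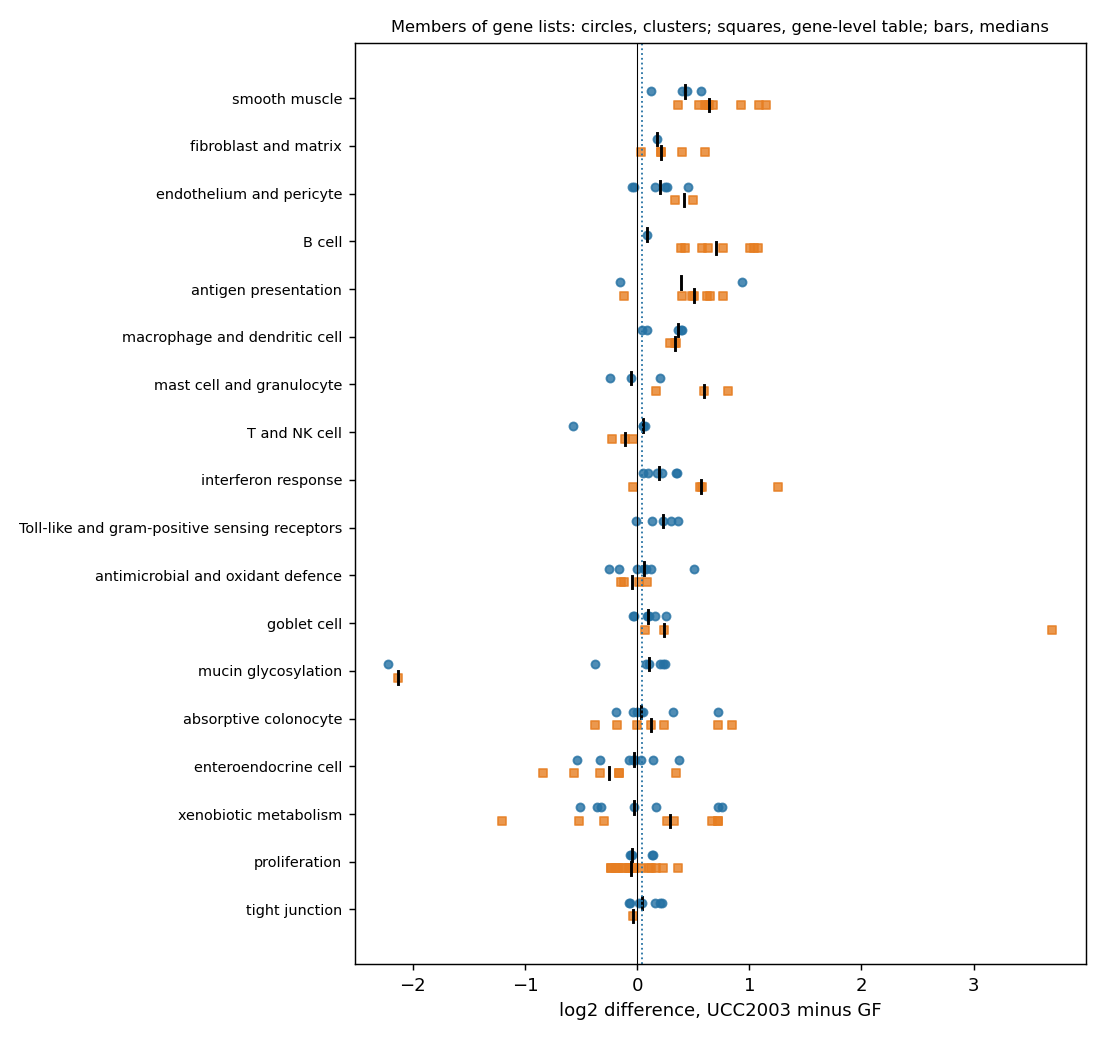
Log2 difference, UCC2003 minus GF (horizontal axis), of the members of 18 gene lists; circles are clusters, squares are genes of the authors' gene-level table, black bars are list medians and the dotted line is the median of all clusters at 0.04. The smooth muscle members all lie to the right of 0, with medians of 0.42 (clusters) and 0.64 (gene level), and the isolated squares at 3.70 and -2.13 are Retnlb and B4galnt2.

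Genes of the other compartments of the wall were mixed. Of 6 endothelium and pericyte clusters 4 were higher and 2 lower, with a median of 0.21, and Lyve1, a lymphatic vessel receptor, was lowest at -0.04. Enteric neuron and glia genes were higher in 0 of 2 clusters (median -0.15) and in 1 of 3 gene-level genes (median -0.10), and the 1 adipocyte cluster, Cfd, was at -0.14. Fn1, fibronectin, was at 9.63, 9.63, 9.49 and 9.66 log2 units in UCC2003 columns, against 9.27, 9.12, 9.12 and 8.49 in GF columns, and all 5 fibroblast and matrix genes of that table were higher, with a median of 0.21. The groups did not overlap for Fn1 (0.60 ± 0.15, adjusted p = 0.338) or for the small collagen-binding proteoglycan Lum (0.40 ± 0.12). Vwf, the von Willebrand factor of endothelium, was at 0.50 ± 0.10 without overlap (adjusted p = 0.242), and the endothelial cadherin Cdh5 was at 0.27 ± 0.12 with overlap. Rgs5, a pericyte gene, was at 0.46 ± 0.29 and 0.25 on its 2 clusters. Fgf2, a growth factor made by stromal cells, stood out by size. Its values were 5.01, 6.01, 4.96 and 5.33 in UCC2003 columns, against 3.90, 3.68, 3.87 and 4.03 in GF columns, a difference of 1.46 ± 0.22 that did not pass (adjusted p = 0.0768). TadA mutant colons averaged 5.14 and CONV colons 3.86 log2 units for Fgf2. Kitl, the stem cell factor that keeps mast cells and the pacemaker cells of Cajal alive, was at 0.55 ± 0.16 (adjusted p = 0.604), with 1 GF array above the lowest UCC2003 array.

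B cell genes were higher in UCC2003 as a list but only on the table that the authors had selected. All 8 members were higher, with a median of 0.70 against -0.10 for all genes of the table, and none passed. Of the 8, 5 lay higher without overlap, where 18.4% of the genes of that table did. That table was picked for variation that includes the TadA mutant, where these 8 genes had a median difference from GF of 0.79. The counts of this list therefore cannot be set against the share of the table as a result. Cd79b, a signalling chain of the B cell receptor, was at 6.54, 7.33, 7.16 and 6.86 log2 units in UCC2003 columns, against 6.0, 6.41, 5.40 and 6.08 in GF columns, a difference of 1.00 ± 0.25 (adjusted p = 0.338). Cr2, the complement receptor of B cells and follicular dendritic cells, was at 4.88, 6.0, 5.38 and 4.51 in UCC2003, against 3.74, 4.36, 4.06 and 4.44 in GF, a narrow separation. Ighm, the IgM heavy chain, was at 6.56, 7.01, 7.21 and 7.69 in UCC2003, against 6.29, 5.77, 5.87 and 5.51 in GF (1.26 ± 0.27, adjusted p = 0.283). Cxcl13, the chemokine that draws B cells into follicles, was at 0.83 ± 0.26 without overlap. The single light chain segment among the named genes went the other way: Igkv3-9 was at -1.11 ± 0.21, with all UCC2003 columns below all GF columns. B cell means of TadA mutant and CONV columns ran from 5.29 to 6.03 and from 5.62 to 6.51 log2 units, next to 5.37 to 6.08 in UCC2003 and 4.89 to 5.11 in GF columns.

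Antigen presentation genes were mostly higher too. Of 7 gene-level members, 6 were higher, with a median of 0.51, against 41.4% higher and a median of -0.10 over that table. Of the 7, 4 lay higher without overlap, where 18.4% of its genes did. The table was picked for variation that includes the TadA mutant, where these 7 genes had a median difference from GF of 0.69. Their counts therefore cannot be set against the share of the table as a result. H2-Ab1, a class II chain, was at 7.26, 7.57, 7.90 and 7.35 log2 units in UCC2003 columns, against 6.74, 7.01, 7.18 and 6.55 in GF columns (0.65 ± 0.17, adjusted p = 0.358). The class II partners Cd74 and H2-DMb1 were at 0.62 ± 0.20 and 0.77 ± 0.22 without overlap, and Ciita, their master activator, was at 0.51 ± 0.20 with overlap. CONV values were higher still, at 8.34 for H2-Ab1, against 7.77 in the TadA mutant group and the UCC2003 mean of 7.52. In UCC2003, 0 of the 7 members were higher than in the TadA mutant, with a median difference of -0.24. On clusters the lists could barely be read, with 2 antigen presentation genes and 1 B cell gene measured.

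**Figure D4:**
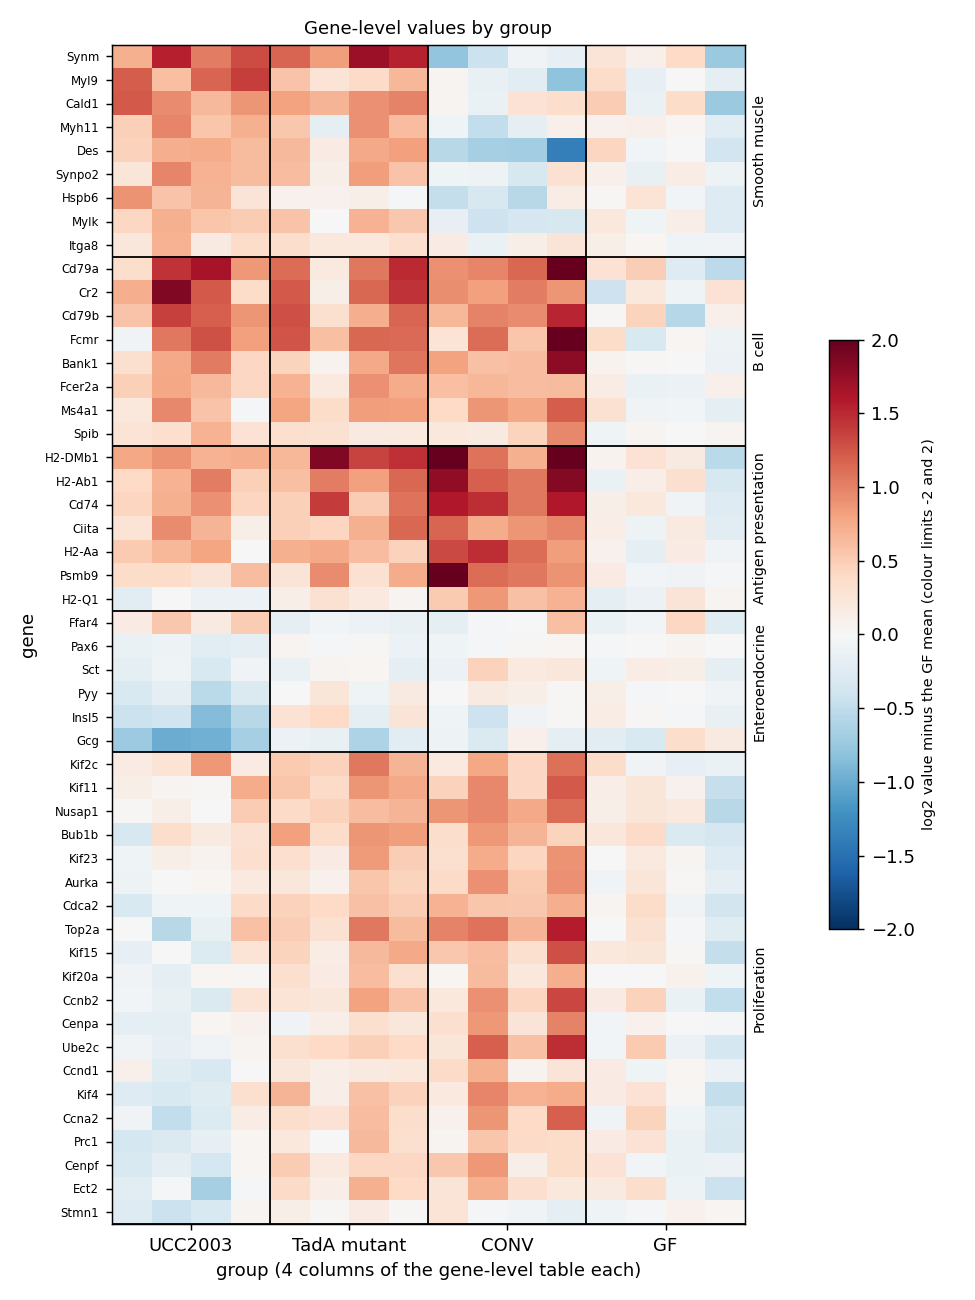
Log2 values minus the GF mean in the gene-level table, by column, for smooth muscle, B cell, antigen presentation, enteroendocrine and proliferation genes (rows), with 4 columns per group and the UCC2003 columns on the left. Red is above and blue below the GF mean, with colours saturating at 2 and -2. Gcg, Insl5 and Pyy are blue in all 4 UCC2003 columns, smooth muscle rows are red in them, and proliferation rows are mostly pale.

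Resident myeloid genes were higher in UCC2003 by small amounts. On clusters all 5 macrophage and dendritic cell genes were higher, with a median of 0.36. That median is the value of Cd14, which is also in the list of bacterial sensing receptors below. Without the arrays with pancreatic transcripts 3 of 5 were higher, with a median of 0.21, and the median was 0.18 without GF replicate 4. C1qb, a complement component of tissue macrophages, was at 6.74, 6.84, 6.74 and 6.91 in UCC2003 arrays, against 6.63, 6.63, 6.62 and 5.79 in GF arrays. The groups did not overlap, though GF replicate 4 lay far below the other GF arrays, and without it the difference in C1qb was 0.18 in place of 0.39. In the gene-level table C1qb, the scavenger receptor Cd163 and the growth factor receptor Csf1r were at 0.30, 0.35 and 0.34, none of them called. Mast cell and granulocyte genes were higher in 1 of 3 clusters, with a median of -0.05, and in 3 of 3 gene-level genes, with a median of 0.59. Cma1, a chymase, was at 6.36, 6.13, 6.13 and 6.10 in UCC2003 columns, against 5.56, 5.60, 5.57 and 5.61 in GF columns. That is a tight separation (0.59 ± 0.16, adjusted p = 0.365). The mast cell carboxypeptidase Cpa3 was at 0.81 ± 0.22 with overlap. Among T and NK cell genes, Cd3g was at -0.11 and Ifng, the interferon-gamma gene, at 0.05, both with overlap. S1pr4, a lymphocyte receptor for sphingosine phosphate, was lower in all UCC2003 arrays than in all GF arrays (-0.57 ± 0.15, adjusted p = 0.599).

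Receptors through which host cells sense gram-positive bacteria such as bifidobacteria were mostly slightly higher. Cd14, a co-receptor of Toll-like receptors, was at 9.20, 9.63, 9.44 and 9.74 in UCC2003 arrays, against 9.23, 9.05, 9.21 and 9.07 in GF arrays. Its difference was 0.36 ± 0.12 (adjusted p = 0.612), and 1 UCC2003 array lay within the GF range. Tlr2, which binds lipoproteins, was at 0.23 with an interval of -0.12 to 0.58, its partner Tlr6 at 0.30 ± 0.11, and its other partner Tlr1 at -0.01 (-0.27 to 0.25). The list of 5 measured clusters also holds Sigirr, which restrains Toll-like receptor signalling and is no sensor of bacteria. Of the 5 clusters 4 were higher, Sigirr among them, with a median of 0.23. The range of that median when 1 array was left out was 0.15 to 0.32. Cd14 in CONV averaged 10.81 log2 units, and UCC2003 was below CONV by -1.31 ± 0.12 (limma adjusted p = 5.09e-05).

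Cytokine and chemokine genes were more often lower than higher, with no call. Of 14 cytokine and chemokine clusters 5 were higher and 9 lower in UCC2003, with a median of -0.09. Tnf differed by -0.04 (95% interval -0.37 to 0.29) and was -1.90 ± 0.15 log2 units below CONV. Of 7 gene-level members 2 were higher, with a median of -0.28: Cxcl13, given above at 0.83 without overlap, and Csf2, a myeloid growth factor, at 0.26 with overlap. In the same table Cxcl1, a neutrophil-attracting chemokine, was at 8.30, 7.98, 7.89 and 7.97 in UCC2003 columns, against 8.33, 8.34, 8.39 and 8.73 in GF columns, a small separation (-0.41 ± 0.13, adjusted p = 0.514). Il12b, the shared subunit of interleukins 12 and 23, was at -0.44 ± 0.11 without overlap, and Il1rn, the interleukin-1 receptor antagonist, at -0.35 ± 0.10 with overlap. Interferon-response clusters were higher in 6 of 6, with a median of 0.20, but leaving out single arrays brought the count as low as 3 of 6, and the median was 0.0034 without UCC2003 replicate 4. That array carried the highest Ifit1, at 7.65 log2 units, against 5.01 to 6.15 in the other UCC2003 arrays. Of 4 gene-level members of that list 3 were higher, where 41.4% of all genes of the table were, and Nlrc5 was at -0.04. Their median was 0.57, and 0.45 without UCC2003 column 4. Gene-level Stat2 and Parp14, parts of the type I interferon response, were at 0.56 ± 0.14 and 0.58 ± 0.14 with no overlap (adjusted p = 0.338 for both). Among UCC2003 columns, both were highest in column 4, at 7.49 and 7.69 log2 units.

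Metabolic genes of the epithelium differed in both directions, with no call. Gsta1 and Gsta2, glutathione transferases that conjugate reactive compounds, were lower. Gsta1 was at 7.74, 7.42, 7.04 and 7.79 log2 units in UCC2003 columns, against 9.02, 8.26, 9.09 and 8.45 in GF columns. All UCC2003 columns were below all GF columns (-1.21 ± 0.22, adjusted p = 0.189), and Gsta2 differed by -1.10 ± 0.19 (adjusted p = 0.13), with cross-hybridisation between these close relatives not resolved here. Nqo1, a quinone reductase, was at 5.40, 5.49, 5.33 and 5.51 in UCC2003 columns, against 6.10, 5.97, 6.05 and 5.68 in GF columns (-0.52 ± 0.12, adjusted p = 0.302). On the cluster of Nqo1 the difference was -0.32 ± 0.18 and the groups overlapped. Other detoxifying genes were higher. Cyp4f14, a cytochrome P450 that hydroxylates fatty acids and leukotrienes, was at 6.91, 6.80, 7.10 and 7.65 in UCC2003 arrays, against 6.37, 6.25, 6.43 and 6.38 in GF arrays (0.76 ± 0.18, adjusted p = 0.56). Tpmt, which methylates thiopurines, was at 1.31 ± 0.26 without overlap, and the sulfotransferase Sult1c2 at 0.72 ± 0.21. Xenobiotic genes were higher in 3 of 7 clusters and 5 of 8 gene-level genes.

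Transporters and lipid genes also parted. Fxyd4, a regulator of the sodium pump in colon and kidney, was at 10.47, 11.40, 10.06 and 10.56 in UCC2003 columns, against 11.65, 11.49, 11.91 and 11.88 in GF columns. The highest UCC2003 column came close to the lowest GF column (-1.11 ± 0.22, adjusted p = 0.241), and CONV averaged 7.66. Slc9a3, the sodium-hydrogen exchanger NHE3 of absorptive cells, was at 7.98, 7.82, 8.11 and 8.75 in UCC2003, against 7.16, 7.82, 7.17 and 7.13 in GF (0.85 ± 0.27, adjusted p = 0.502). Abca1, the cholesterol exporter, was at 0.59 ± 0.13 without overlap. Creb3l3, a transcription factor of lipid metabolism, was at -0.49 ± 0.10 without overlap (adjusted p = 0.242). Tight junction genes showed no call. Of 7 claudin clusters 5 were higher, with a median of 0.04 and differences from -0.07 to 0.22. Leaving out 1 array moved the number that were higher between 2 and 6. Cldn7 differed by 0.04 (-0.21 to 0.29) and Cldn3 by -0.07 (-0.32 to 0.17).

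Proliferation genes bear on the growth named in the series title, and none was called in UCC2003 against GF. Of 5 clusters 2 were higher and 3 lower, with a median of -0.04 log2 units. Among the 20 measured in the gene-level table, 6 stood above and 14 below GF, with a median of -0.05 against -0.10 over that table. No gene of the 20 had groups that did not overlap. Of all genes of that table, 18.4% lay higher and 19.3% lower without overlap. The table was picked for variation that includes the TadA mutant, where these 20 genes had a median difference from GF of 0.43. In UCC2003, 0 of the 20 were higher than in the TadA mutant. Their lack of separation from GF therefore cannot be set against the share of the table. Top2a, the topoisomerase of dividing cells, differed by -0.03 (95% interval -0.51 to 0.45). Birc5, a survivin gene active in mitosis, differed by -0.04 (-0.44 to 0.36) and Mcm4, part of the replication helicase, by -0.06 (-0.31 to 0.20). These intervals leave out a doubling or a halving of those levels, and changes within them were not detectable with these arrays. The sign of the list median changed with the arrays used: it ran from -0.10 to 0.08 on clusters and from -0.15 to 0.06 in the gene-level table when 1 array or column was left out. Among genes of the stem cell niche, Ascl2, a transcription factor of crypt base stem cells, was at 6.56, 6.39, 6.61 and 6.83 in UCC2003 columns, against 5.66, 5.27, 6.4 and 6.11 in GF columns (0.74 ± 0.20, adjusted p = 0.362). Rspo3, a Wnt-enhancing factor of stromal cells, was at 0.38 ± 0.11 without overlap. These were the 2 higher of 5 gene-level members of the stem cell and growth factor list. The 3 lower members were Igf2 at -0.26, Fzd5 at -0.22 and Tert at -0.18. The list median was -0.18, against -0.10 over that table. Outside that list, Id3, a target of BMP signalling, was at 0.53 ± 0.17 on clusters without overlap.

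The named clusters with the smallest p-values below the calls came from no single list. Tppp, a tubulin polymerisation-promoting protein, was at 8.19, 7.76, 8.0 and 8.36 log2 units in UCC2003 arrays, against 7.56, 7.36, 7.47 and 7.47 in GF arrays. The groups did not overlap (0.61 ± 0.12, adjusted p = 0.347), and UCC2003 was above CONV by 0.99 ± 0.12 (adjusted p = 0.000494). Them6, a thioesterase-family gene, was at 4.12, 3.68, 3.86 and 3.11 in UCC2003, against 4.32, 4.93, 4.32 and 4.82 in GF, all UCC2003 arrays lying lower (-0.91 ± 0.20, adjusted p = 0.471). The other genes higher by this rule were Tceanc2 (0.85), Ttc9c (0.48), Eif1b (0.29), Dcun1d1 (0.29), Rnf186 (0.28), Rpp14 (0.45) and Fgl2 (0.54), and the lower ones Hoxc13 (-0.41), Olfr211 (-0.42), Abi3 (-0.41), Sowahb (-0.37), Irf2bpl (-0.43), Drd4 (-0.28), Sprr2k (-0.95), Pspn (-0.54), Lce1l (-0.50) and Cypt3 (-0.42). Rnf186, an intestinal ubiquitin ligase, and Fgl2, a fibrinogen-like protein of immune cells, are the ones among them best known in the gut.

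Gene-level genes close to the threshold included several of signalling and of other tissues. Pak3, a kinase of the actin skeleton known from neurons, was at 3.66, 4.36, 3.83 and 3.87 in UCC2003 columns, against 2.97, 3.14, 2.88 and 2.69 in GF columns, a dim but complete separation (1.01 ± 0.15, adjusted p = 0.0677). Its level in TadA mutant columns averaged 2.89 and the difference from them was 1.04 (adjusted p = 0.0691). Glt1d1, a glycosyltransferase-family gene, was at 6.02, 6.31, 6.68 and 5.98 in UCC2003, against 4.84, 5.04, 4.96 and 5.07 in GF (1.27 ± 0.22, adjusted p = 0.13). Prkcb, a protein kinase C of immune cells, was at 0.93 ± 0.16, Kdm1b, a histone demethylase, at 0.56 ± 0.10 and Ssx2ip, a centrosome and junction protein, at 0.57 ± 0.11, all without overlap. The microRNA gene Mir1900 was at 0.91 ± 0.14, and the array reads its locus and not the mature form. Also higher were Ccnb2-ps (0.77), Olfr755-ps1 (0.99) and Olfr198 (1.05). On the lower side Gabrd, a GABA receptor subunit, was at 7.30, 7.26, 7.37 and 7.09 in UCC2003, against 8.10, 8.14, 7.74 and 8.02 in GF (-0.75 ± 0.14, adjusted p = 0.184). Catsperb, a sperm channel subunit, was at -1.47 ± 0.23, Pbp2 at -1.06, Ckmt2, a mitochondrial creatine kinase, at -0.68, Ddi1 at -0.64, Olfr1008 at -0.64 and Klk9, a kallikrein, at -0.56.

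**Figure D5:**
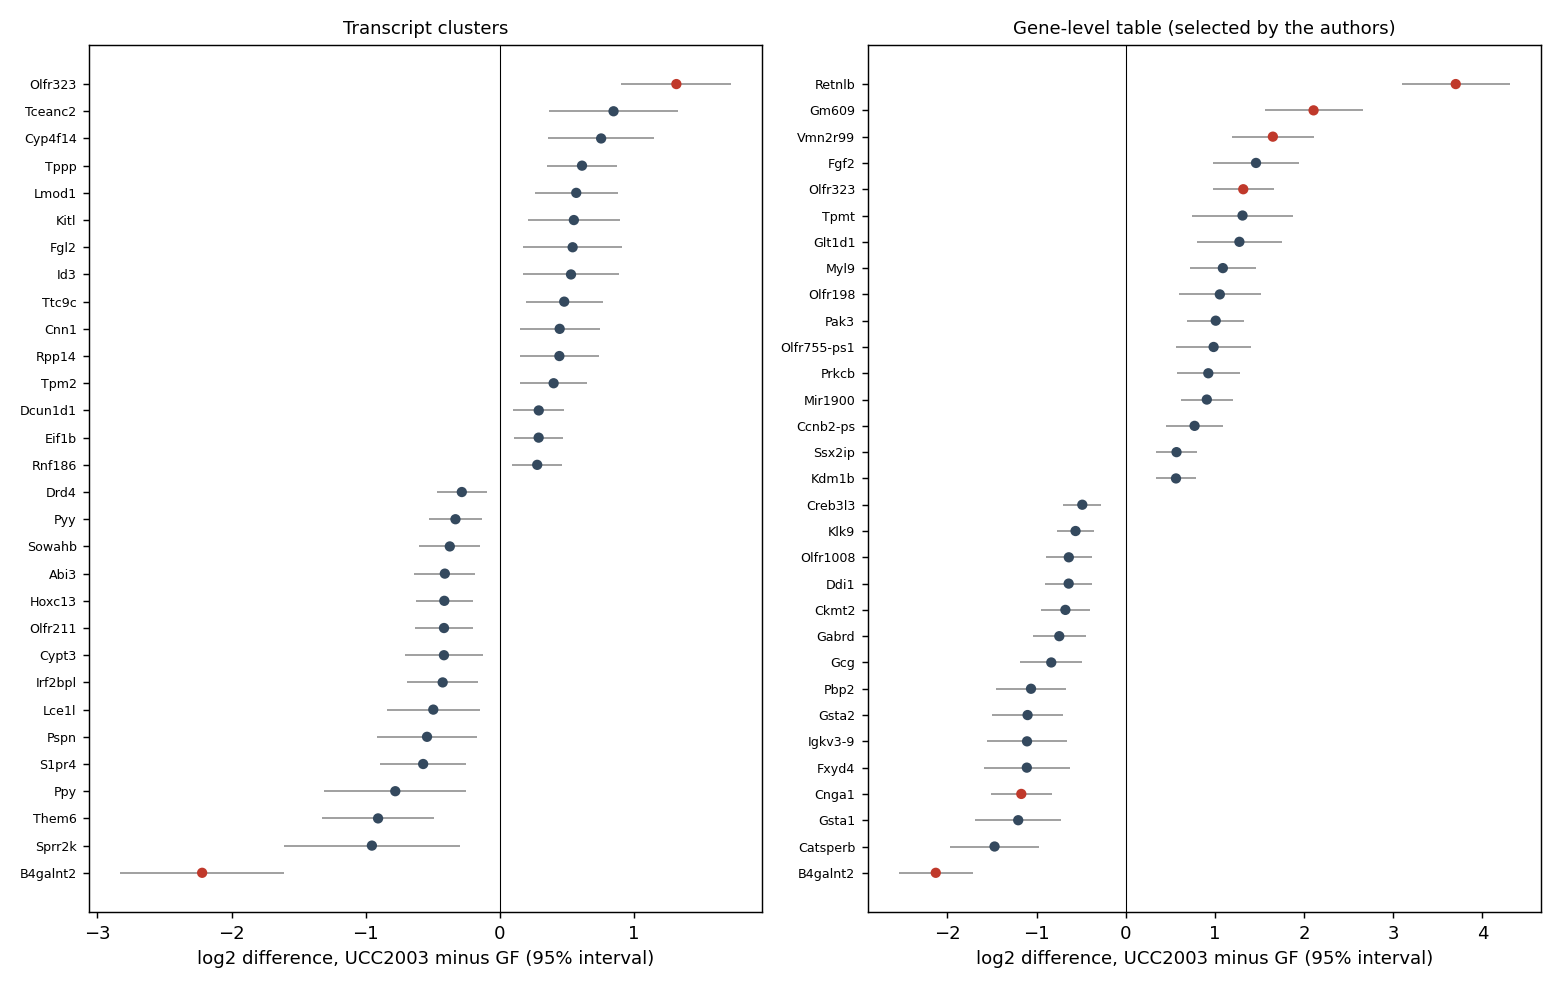
Log2 difference, UCC2003 minus GF, with its 95% interval (horizontal axis) for the named genes with the smallest p-values in each direction, on transcript clusters (left) and in the authors' gene-level table (right). Red points passed an adjusted p of 0.05. On clusters the red points are Olfr323 at 1.32 and B4galnt2 at -2.22, and most other genes lie within 1 log2 unit of 0.

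The mice given the TadA mutant were colonised too, and UCC2003 was compared with them directly. UCC2003 differed from the TadA mutant in 2 of 23332 clusters (0.00857%) and 2 of 1793 gene-level genes (0.112%) by limma. Cluster 6841363 was higher in UCC2003 than in the mutant by 3.44 ± 0.27 log2 units (adjusted p = 7.97e-05), and Retnlb by 2.91 ± 0.28 (adjusted p = 0.00241). B4galnt2 was lower, by -2.31 ± 0.29 on clusters (adjusted p = 0.0132) and by -2.18 ± 0.19 in the gene-level table (adjusted p = 0.00178). The other called genes did not pass there: Gm609 was at 1.91 (adjusted p = 0.0579), Vmn2r99 at 1.27, Cnga1 at -0.75 and Olfr323 at 0.54. Against GF, in a comparison that shares the GF arrays with the one above, the TadA mutant was at 0.79 for Retnlb, 0.88 for cluster 6841363 and 0.09 for B4galnt2, with no call. Smooth muscle levels lay between 8.21 and 8.48 in UCC2003 arrays and between 7.84 and 8.42 in TadA mutant arrays, against 7.67 to 8.09 in GF arrays.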

How the data were processed

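The authors normalised the array values with RMA in Affymetrix Expression Console 1.1 and deposited them as log2 intensities, with mm9 as the build; these names, and Partek, are per the submitters' processing notes. The authors' deposited comparison table holds log2 group means, p-values with adjusted p-values, and a signed fold score of GF over UCC2003, per the file headers. The deposited gene-level table holds log2 values, the p-value of the authors' ANOVA and a ratio of group means that was not used, per the file headers.

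Groups came from the treatment label of each sample. With limma 3.58.1 (R 4.3.3), group means were fitted over the 16 arrays, the UCC2003 minus GF contrast was tested two-sided with the moderated test, and the Benjamini-Hochberg adjustment ran over 23332 clusters. The gene-level fit used the 12 columns of UCC2003, TadA mutant and GF and 35860 tests for the adjustment, that is 1793 divided by the 0.05 at which the authors selected. No spread beyond these arrays was available, and their number limits the precision of every value. Symbols were taken from the comparison table and updated through the RefSeq gene table (1910 of 1973 named clusters and 1596 of 1793 genes matched); 61 clusters with several symbols stayed unnamed.

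The members and the gene lists were chosen with earlier results of these data known. Named are all called features, in each table the 15 smallest p-values in each direction without predicted or clone-named genes, and up to 4 members of each list by p-value; further list members were named after their values were seen. The procedure was tested on simulated data. Alternatives were the compared groups only, no moderation, a trend with a robust prior, other scalings, brighter features only, a replicate block, pancreatic and smooth muscle levels as covariates, arrays without pancreatic transcripts, and leaving out each array. Same-numbered UCC2003 and GF arrays deviated from their group means with correlations from -0.24 to 0.0028, so the numbers do not pair the arrays.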

Additional observations from a re-analysis of the deposited data

Results flagged for a closer look

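Several values stood apart from the other arrays of their group, at a rate near that of chance: in 5 of 128 groups of 4 checked, 1 array lay far from the other 3, and chance gives about 1 in 20. Ttc9c was at 6.57 log2 units in GF replicate 4, against 7.01 to 7.06 in the other GF arrays. Ppy was at 7.42 in UCC2003 replicate 3, against 8.03 to 8.07 in the other UCC2003 arrays. Pspn was at 5.85 in GF replicate 2, against 5.34 to 5.41 in the others. In the gene-level table Olfr1008 was at 5.56 in 1 GF column, against 5.38 to 5.40, and Creb3l3 at 5.82 in 1 UCC2003 column, against 5.53 to 5.56.

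The colonised groups differed from each other, by a limma test of the difference, in 3 features. Of these, cluster 6841363 has no gene name here, and whether it reads the same transcript as Retnlb was not tested. Between UCC2003 and the TadA mutant the log2 difference was -2.31 for B4galnt2 on clusters and -2.18 in the gene-level table, 3.44 for cluster 6841363, and 2.91 for Retnlb. Litter and cage are not in the labels, and a difference in them cannot be told apart from the bacterial strain.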

How the results depend on the processing

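The count of 5 clusters called in UCC2003 against GF was 2 with the compared groups only, 1 without moderation, 2 among brighter clusters, 2 with the replicate number as a block (1588 at an unadjusted p under 0.05), 3 with the pancreatic level and 1 with the smooth muscle level as covariate, and 0 by limma without the arrays with pancreatic transcripts (2033 unadjusted). Leaving out 1 array gave 1 to 4 calls, with 1 without UCC2003 replicate 3 or GF replicate 2 or 4, 2 without GF replicate 1, and 3 without UCC2003 replicate 1 or 4. The gene-level count of 6 was 1 without moderation, 10 with a trend and robust prior, 0 by limma with the smooth muscle covariate (207 unadjusted) and 971 adjusted over its rows alone, and 2 (without GF column 4) to 13 (without UCC2003 column 2) with 1 column left out. No paired analysis and no fit without the pancreatic arrays was run on the gene-level table, because its columns carry no replicate number. For Olfr323, the values in column order were the same as those of its cluster in replicates 1 to 4. Whether the order of the columns is that of the replicates for all genes was not tested. UCC2003 against the TadA mutant gave 1 cluster in place of 2 without moderation, 0 by limma without the pancreatic arrays (1351 unadjusted) and 1 to 2 with 1 array left out (1 without TadA mutant replicate 1, 3 or 4). Its gene-level count of 2 was 0 without moderation (709 unadjusted), 5 with median centring, 4 among brighter genes, 345 over its rows alone and 2 to 8 with 1 column left out (4 and 8 without UCC2003 columns 1 and 4).

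Of 139 named results 21 changed direction in some alternative and 47 kept direction and side in all. The smooth muscle level of each table is the mean of its own smooth muscle members. Synm and Cald1 are thus part of the gene-level covariate, and their adjusted differences cannot be read as results. Adjusted for the smooth muscle level, the gene-level differences turned to 0.20 for Cxcl1, 0.20 for Nlrc5, -0.25 for Cd79a, -0.068 for Csf1r, -0.31 for Synm, -0.090 for Cald1, -0.10 for Fn1, -0.0066 for L1cam, 0.018 for Fzd5, -0.12 for Kif2c, -0.22 for Cyp2c55, -0.26 for Sult1c2, -0.076 for Scd2, 0.18 for Fosb and -0.26 for Cxcl13; the smooth muscle means of that table, 8.28 to 8.49 in UCC2003 and 7.30 to 7.86 in GF, do not overlap. On clusters Ccne2 turned to -0.043 with that covariate and to -0.026 without GF replicate 4 (up to 0.28 without others), Gins2 to -0.23 without the pancreatic arrays, Mcm4 (from -0.11) to 0.041 and 0.010 without UCC2003 replicate 3 or GF replicate 3, Irf7 and Ifit1 to -0.045 and -0.20 without UCC2003 replicate 4 (up to 0.33 and 0.68 without others), and Ube2c to 0.082 without GF replicate 2. Nlrc5 turned to 0.016 and 0.0054 without UCC2003 column 1 or GF column 2, and was as low as -0.078 without others. List counts without the pancreatic arrays, chosen after seeing the data, were 6 of 10 higher for exocrine pancreas in place of 3, and 1 of 5 for proliferation in place of 2. The cause of these changes was not tested. The number of arrays limits all values.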
